A study of Mus musculus with 6 samples.

Results

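Col10a1, the collagen of hypertrophic cartilage, was examined together with 6 other genes of hypertrophic chondrocytes, namely Mef2c, Mef2d, Panx3, Scin, Cd200 and Hdac4. These 7 genes were chosen by symbol from the 24346 in the files, as hypertrophic chondrocyte genes that are not also general mineralization genes of osteoblasts. All 7 were present in every library and all 7 passed the filter of a mean of at least 1 FPKM (sequenced fragments for each kilobase of transcript, relative to library size). Messenger RNA came from the nasomaxillary complex, the block of nasal and upper jaw tissue, of E17.5 mouse embryos that received no treatment. The 3 control libraries were from Pth1r f/f embryos, whose Pth1r gene is floxed; it encodes the receptor that parathyroid hormone and its related protein, PTHrP, share. The 3 mutant libraries were from Wnt1-Cre:Pth1r f/f embryos, which carry the same floxed gene and a Cre driven by the Wnt1 promoter, active in neural crest. The controls carried no Cre, so an effect of the transgene and an effect of recombined Pth1r cannot be told apart, and cells outside the neural crest keep an intact gene. The labels do not say whether libraries were separate embryos, and p-values therefore reflect only the spread among the samples at hand.

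Cartilage that will turn into bone matures from dividing chondrocytes to enlarged, hypertrophic ones, which switch from collagen II to collagen X. PTHrP holds chondrocytes back from this step. In long bones its receptor raises cyclic AMP, and the histone deacetylase HDAC4 then stays in the nucleus, where it binds MEF2 transcription factors and keeps them from activating hypertrophic genes such as Col10a1. In the face, neural crest gives rise to most of the cartilage and bone.

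Total FPKM per library lay between 514693 and 546322, and the spacing of low values put depth between about 7980000 fragments (mutant replicate 3) and 13200000 fragments (control replicate 2). Cartilage genes were clearly present, with 13 in the list, all of matrix but the transcription factor genes Sox5 and Sox6. Their summed level was 1752 to 2127 FPKM in control and 572.7 to 956.7 FPKM in mutant. Osteoblast genes were also clearly present (summed level of 9 genes 8053 to 10540 FPKM in control and 7400 to 8294 FPKM in mutant). Pth1r averaged 68.0 ± 11.1 FPKM in controls and 75.1 ± 4.73 FPKM in mutants (SD, n = 3 each), a value for the whole gene that does not check the genotype. Xist and Y-linked genes marked mutant replicates 2 and 3 as male and the other 4 libraries as female, so sex was not balanced between groups. Over 14766 tested genes, limma called 39, or 0.264%, at an adjusted p under 0.05.

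Col10a1 lies on chromosome 10, 34389981 to 34397085, on the plus strand of GRCm38, and its 3 exons fall inside the span of Nt5dc1, a gene on the opposite strand (34288288 to 34418552). The 250 bases upstream of its start are shown because this is the only member whose level changed past the threshold, and those of Mef2c (the first of its 3 listed start sites) and Scin are shown because they are the other members whose groups did not overlap. Sequences are RefSeq's for GRCm38.p6, read 5′ to 3′ on the gene's own strand and ending at the base before the start site. Capitals mark matches, on either strand, to TATAAA, to TGTGGT (RUNX), to TGANTCA (AP-1) or to the MEF2 motif, taken as CTA and TAG with any 4 bases between them.
Col10a1, chr10:34389731-34389980, plus strand: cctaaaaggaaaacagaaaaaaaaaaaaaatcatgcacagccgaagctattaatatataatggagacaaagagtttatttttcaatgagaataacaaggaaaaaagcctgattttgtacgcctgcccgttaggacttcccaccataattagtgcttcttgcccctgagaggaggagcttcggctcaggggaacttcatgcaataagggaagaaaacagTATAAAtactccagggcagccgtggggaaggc
Mef2c, chr13:83503784-83504033, plus strand: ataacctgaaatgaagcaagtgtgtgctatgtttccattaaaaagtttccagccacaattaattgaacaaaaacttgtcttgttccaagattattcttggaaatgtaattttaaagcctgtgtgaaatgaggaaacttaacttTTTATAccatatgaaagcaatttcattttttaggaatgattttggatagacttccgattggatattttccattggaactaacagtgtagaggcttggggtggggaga
Scin, chr12:40134229-40134478, minus strand: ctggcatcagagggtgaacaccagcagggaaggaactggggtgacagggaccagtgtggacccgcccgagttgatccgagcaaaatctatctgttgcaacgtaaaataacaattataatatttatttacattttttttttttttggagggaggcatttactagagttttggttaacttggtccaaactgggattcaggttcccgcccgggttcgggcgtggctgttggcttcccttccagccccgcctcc
In the Col10a1 window the single match was TATAAA, 32 to 27 bases upstream of the start. TATAAA was found in 12.4% of the 32851 promoters of this length in the table, TGTGGT in 14%, the MEF2 motif in 3.20% and TGANTCA in 6.75%. The Mef2c window held TATAAA on the opposite strand, 107 to 102 bases upstream, and the Scin window held none of these letters. At the Mef2c start sites not shown, site 2 held TATAAA on the opposite strand, 22 to 17 bases upstream (44.8% G and C). Site 3 held TGAATCA, a match to TGANTCA with A as the free base, 137 to 131 bases upstream (49.6% G and C). The window was 41.6% G and C for Col10a1, 33.6% for Mef2c and 49.2% for Scin, against 73.2% for Mef2d and 65.2% for Hdac4 and a median of 52.4% over all promoters. Of the 7 genes, 6 had a promoter in the table, and Panx3 had none.

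Col10a1 was a low transcript in control libraries and among the more abundant ones in mutant libraries. It stood at 1.27, 1.21 and 1.28 FPKM across control replicates 1 to 3 and at 54.5, 61.6 and 77.0 FPKM across mutant replicates 1 to 3. The lowest mutant value was 42.5 times the highest control value, and no library stood between the groups. By rank, Col10a1 moved from between the 40.9th and 41.7th percentile of the 24346 genes in control to between the 93.9th and 96.0th in mutant, or from rank 14188 at best to rank 969 at best. On the log2(FPKM + 1) scale it rose by 4.84 ± 0.12 (SE, 95% interval 4.56 to 5.12; limma adjusted p = 1.18e-05). The scale understates the change of a gene this low in control. The ratio of the mean FPKM was 51.2.

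**Figure D1:**
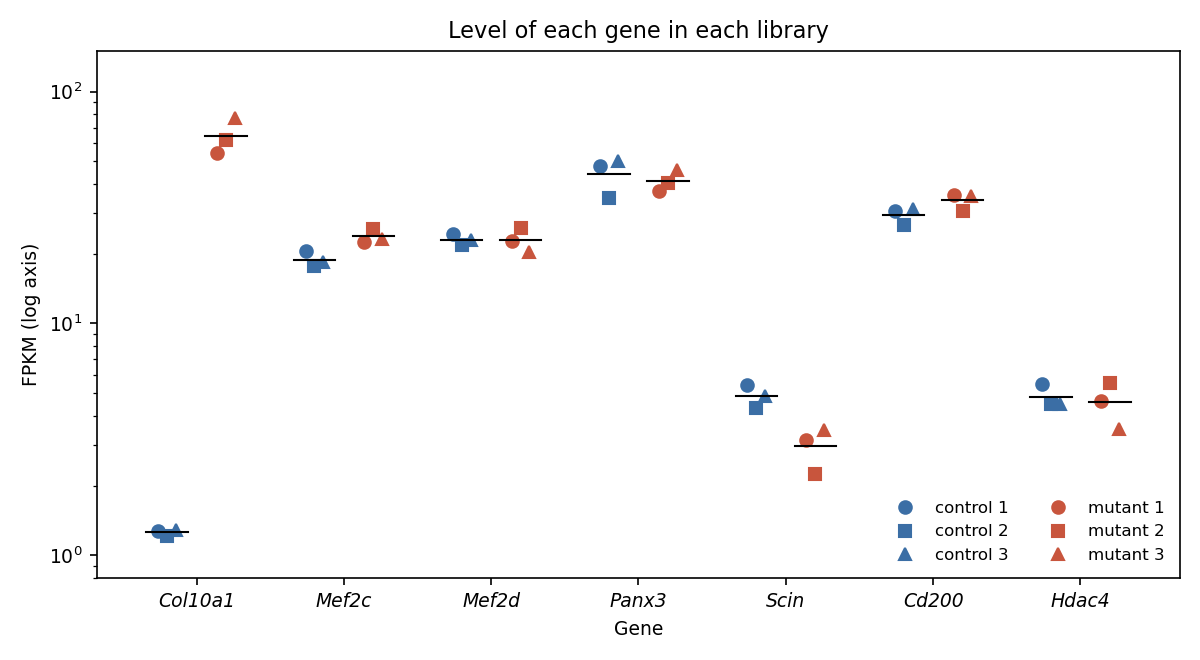
Level of each of the 7 genes (FPKM, log axis) in each library, with controls in blue, mutants in red, a symbol for each replicate and a black bar at the group mean. Col10a1 sits between 1.21 and 1.28 FPKM in control and between 54.5 and 77.0 FPKM in mutant, whereas the groups of the other 6 genes lie close together.

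The control level of Col10a1 rested on few fragments. Its single annotated transcript is 3130 bases long, which at the estimated depths makes about 44.7 to 50.1 fragments in each control library and 1920 to 2070 in each mutant library. Counting error alone would then give a control SD of 14.1% to 15% of the mean. The observed control SD was 2.95%, so the 3 control values were closer to each other than their depth assures, and the fold carries at least that counting uncertainty. Nt5dc1, on the other strand of the same region, shares 18 exonic bases with Col10a1. The strand setting of the authors' counting is not given in the sources used here. Nt5dc1 averaged 4.77 ± 0.0306 FPKM in controls and 4.81 ± 0.143 FPKM in mutants (SD, n = 3 each), a log2 change of 0.0089 ± 0.065 with a limma adjusted p of 0.977.

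Collagen X rose while collagen II, its counterpart in less mature cartilage, fell. Col2a1 stood at 715, 608.2 and 783.3 FPKM across control replicates 1 to 3 and at 158.1, 130.6 and 258.8 FPKM across mutant replicates 1 to 3. Its log2 change of -1.99 ± 0.24 (SE) had a limma adjusted p of 0.0267. Col10a1 stood at 0.178%, 0.200% and 0.164% of the Col2a1 level in control replicates 1 to 3. It stood at 34.5%, 47.1% and 29.8% in mutant replicates 1 to 3. The log2 ratio of the 2 collagens, with 1 FPKM added to each, was -8.28 ± 0.16 in control and -1.44 ± 0.34 in mutant (SD, n = 3 each). The difference of 6.83 had an exact two-sided permutation p of 0.10, the smallest that 3 against 3 libraries can give. Mutant replicate 3, the highest in Col10a1, was also the highest mutant in Col2a1. In bulk tissue, fewer cells of a type and less RNA per cell cannot be told apart. Of the 13 cartilage genes, matrix genes with Sox5 and Sox6, 6 fell at a limma adjusted p under 0.05 (Matn1, Acan, Col2a1, Col9a1, Col9a3 and Col11a1). All 13 changes were negative, with a median of -1.21 against -0.002 over all tested genes. Matn1, which encodes matrilin 1, had the largest change of them, -2.68 ± 0.25. That count of 6 was 0 without any single control replicate or without mutant replicate 1, 3 without mutant replicate 2 and 10 without mutant replicate 3. It was also 0 with sex or the muscle level as a covariate, so that the call of Col2a1 was lost there too, 1 with no filter or without trend and 2 with robust eBayes.

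**Figure D2:**
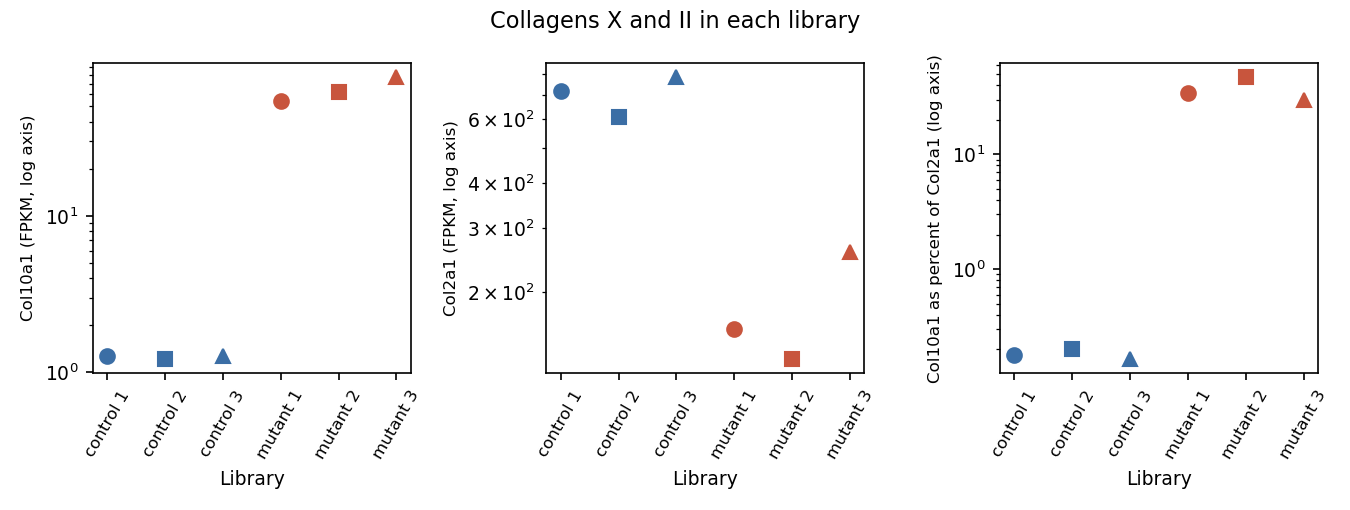
Col10a1 (left) and Col2a1 (middle) in FPKM, and Col10a1 as a percent of Col2a1 (right), in each of the 6 libraries, all on log axes. The percent lies between 0.164 and 0.200 in control and between 29.8 and 47.1 in mutant.

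The other network-forming short-chain collagens, close relatives of collagen X, showed no such difference. Col8a1 averaged 34.8 ± 1.38 FPKM in controls and 36.0 ± 3.46 FPKM in mutants, with a log2 change of 0.043. Col8a2 measured 100.5 ± 6.30 and 98.6 ± 4.13 FPKM (SD, n = 3 each), with a log2 change of -0.026. The limma adjusted p was 0.877 and 0.916. Their 95% intervals, -0.13 to 0.22 and -0.17 to 0.12, lay far below the change of Col10a1.

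The MEF2 factors bind the control regions of hypertrophic genes, and Mef2c is the member required for chondrocyte hypertrophy in mice. Mef2c (chromosome 13, 83504034 to 83667080, plus strand) stood at 20.5, 17.7 and 18.5 FPKM across control replicates 1 to 3 and at 22.6, 25.6 and 23.1 FPKM across mutant replicates 1 to 3. The groups did not overlap, although the lowest mutant value was only 1.10 times the highest control value. The log2 change was 0.32 ± 0.074 (SE, 95% interval 0.14 to 0.49). It did not pass the threshold over all genes (limma adjusted p = 0.211, unadjusted p = 0.00331), and 11.3% of all tested genes had an unadjusted p under 0.05. Mef2d, its close paralog (chromosome 3, 88142372 to 88172086, plus strand), stood at 24.3, 21.7 and 22.9 FPKM across the controls and at 22.7, 25.9 and 20.4 FPKM across the mutants. Its groups overlapped fully, and the log2 change was -0.0053 with a 95% interval of -0.22 to 0.20. An antisense gene, 1700113A16Rik, shares 531 exonic bases with Mef2d, so its reads may be mixed with those of Mef2d.

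The remaining MEF2 genes had changes near 0. Mef2a averaged 26.3 ± 1.58 FPKM in controls and 27.6 ± 0.518 FPKM in mutants, with a log2 change of 0.068. Mef2b measured 32.2 ± 4.08 and 30.9 ± 5.44 FPKM, with a log2 change of -0.067, and shares 62 exonic bases with Borcs8, whose transcription runs in the same direction. Limma called none of the 4 MEF2 genes.

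Skeletal muscle also expresses Mef2c, Mef2d and Hdac4, and muscle RNA differed between libraries. All 14 muscle markers had positive changes, with a median of 0.71, and limma called none. Their summed level was 436.3 to 729.2 FPKM in control and 656.6 to 1647 FPKM in mutant, and no marker was at 0. Mutant replicate 2 was the highest of all 6 libraries in all 14 muscle markers, against 21.4% of all tested genes. It was also the highest of all libraries in Mef2c, Mef2d and Hdac4, at 25.6, 25.9 and 5.56 FPKM. Muscle was not alone in this, as mutant replicate 2 was highest of all libraries in 7 of 8 endothelial and 5 of 8 leukocyte markers. The part of those cell types in the 3 genes was not tested. With the muscle level as a covariate the change of Mef2c was 0.19 ± 0.073, that of Mef2d -0.20 ± 0.058 and that of Hdac4 -0.37 ± 0.11 (limma adjusted p of 0.402, 0.328 and 0.336). The change of Mef2c was thus smaller in that fit than the 0.32 without it, and the part of muscle content in these values was not tested beyond it.

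**Figure D3:**
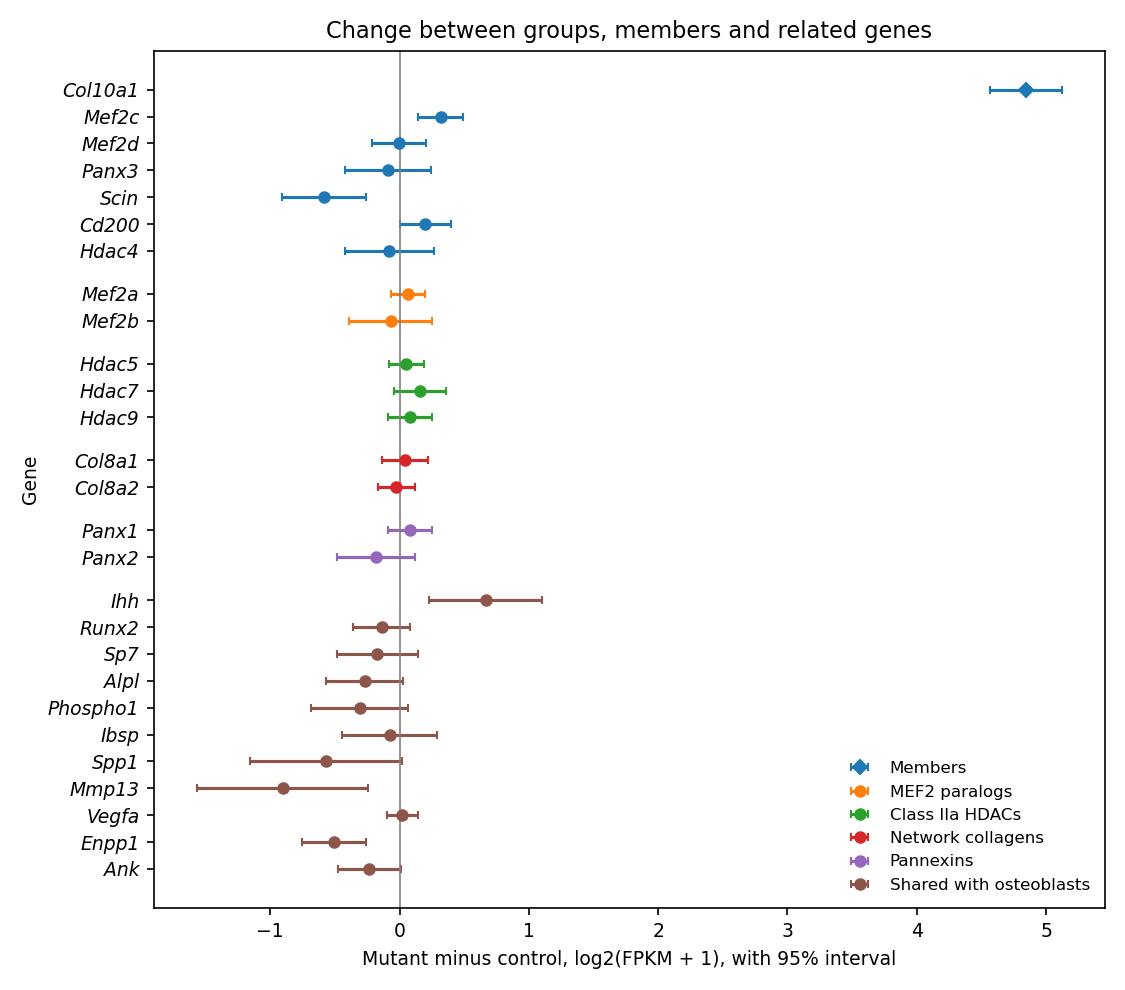
Change between groups (mutant minus control on the log2(FPKM + 1) scale, points with 95% intervals from limma) for the 7 genes and their relatives. A diamond marks the single gene shown that passed an adjusted p of 0.05, Col10a1 at 4.84, while the relatives lie between -0.90 (Mmp13) and 0.66 (Ihh).

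Hdac4 encodes the deacetylase that restrains MEF2 factors and, with them, hypertrophy. Hdac4 (chromosome 1, 91928779 to 92195699, minus strand) stood at 5.47, 4.51 and 4.51 FPKM across control replicates 1 to 3 and at 4.65, 5.56 and 3.50 FPKM across mutant replicates 1 to 3. The mutant libraries held both its highest and its lowest value. Limma gave a log2 change of -0.078 ± 0.15 (SE, 95% interval -0.42 to 0.26; adjusted p = 0.891). Mutant replicate 3 is the shallowest library, and its value rests on about 226 fragments, which gives a counting SD of 6.65%. The observed mutant SD of Hdac4 was larger, at 22.6% of the mean. Without mutant replicate 3 the change was 0.067. A noncoding gene on the opposite strand, Gm26720, overlaps 3536 exonic bases of Hdac4. Gm26720 has no value of its own here, and whether its reads were counted for Hdac4 is not known.

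The other class IIa deacetylases, which can bind MEF2 factors in the same way, did not pass the threshold either. Hdac5 averaged 38.9 ± 2.46 FPKM in controls and 40.3 ± 1.05 FPKM in mutants. Hdac7 measured 33.8 ± 1.73 and 38.0 ± 4.38 FPKM, and Hdac9 3.68 ± 0.162 and 3.94 ± 0.0769 FPKM (SD, n = 3 each). On the log2 scale they differed by 0.054, 0.16 and 0.080 (limma adjusted p = 0.787, 0.536 and 0.743). Hdac9 was higher in all 3 mutant libraries than in any control, by 1.03 times at the closest pair. The same order held for 7.85% of all tested genes.

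Among 23 genes of the route from PTHrP to HDAC4, limma called 1, Pthlh. The list held genes of the ligand, receptor, Gs, protein kinase A, salt-inducible kinases, phosphatase 2A and CRTC coactivators. It also held Camk2d, Camk2g, Zfp521 and genes of the 14-3-3 proteins that hold HDAC4 in the cytoplasm. Pthlh, which encodes the ligand, rose from 7.02, 5.94 and 6.91 FPKM across control replicates 1 to 3 to 12.3, 11.0 and 11.4 FPKM across the mutant ones. Its log2 change was 0.72 ± 0.079, with a limma adjusted p of 0.0228, and the call was lost without any single library other than mutant replicate 2. It was also lost with sex, the muscle level or the cartilage level as a covariate and with no filter on low values. Sik1, a kinase gene that cyclic AMP induces, measured 16.9 ± 1.23 and 20.6 ± 1.05 FPKM, with a limma adjusted p of 0.247. Of the 23 genes 16 had positive changes, the median was 0.059, and they ranged from -0.14 to 0.72. Sik3, whose product phosphorylates HDAC4 in chondrocytes, measured 18.8 ± 0.456 and 18.3 ± 1.36 FPKM, with a log2 change of -0.041 (chosen after its values were seen).

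Panx3, the pannexin of prehypertrophic chondrocytes and osteoblasts, was the most abundant member in control. Panx3 (chromosome 9, 37659902 to 37669235, minus strand) stood at 47.7, 34.7 and 50.04 FPKM across control replicates 1 to 3 and at 37.4, 40.2 and 45.7 FPKM across mutant replicates 1 to 3. The mutant values lay inside the control range. Limma gave a log2 change of -0.089 ± 0.14 (SE, 95% interval -0.42 to 0.24; adjusted p = 0.863). The low control, replicate 2, was the lowest control in all 9 osteoblast markers, against 35.9% of all tested genes. Mutant replicate 2 was the lowest mutant in all 9 of those markers (34.6% of all tested genes) but not in Panx3. Panx3 stood at 58.6%, 58.7% and 60.4% of the level of Sp7, an osteoblast transcription factor gene, in control replicates 1 to 3, and at 53.0%, 67.6% and 68.8% in mutant replicates 1 to 3. The ubiquitous Panx1 and the rare Panx2 had log2 changes of 0.081 and -0.18. Gja1, which encodes connexin 43, the main gap junction protein of bone, had a change of -0.013. None of these was called by limma.

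Scin, which encodes scinderin, an actin-severing protein of the gelsolin family, was the one member lower in every mutant library. Scin (chromosome 12, 40059769 to 40134228, minus strand) stood at 5.44, 4.34 and 4.89 FPKM across control replicates 1 to 3 and at 3.13, 2.23 and 3.49 FPKM across mutant replicates 1 to 3. The lowest control value was 1.24 times the highest mutant value. Mean FPKM was 1.66 times as high in control as in mutant, and the log2 change was -0.59 ± 0.14 (SE, 95% interval -0.91 to -0.26). It did not pass the threshold over all genes (limma adjusted p = 0.219, unadjusted p = 0.0037). The mutant values rest on about 71.7 to 114 fragments each, which gives a counting SD of 9.37% to 11.8%. The observed mutant SD of Scin was larger, at 21.9% of the mean. The mean cartilage level, relative to control, was -1.38, -1.45 and -0.82 in mutant replicates 1 to 3, so mutant replicate 2 was lowest and mutant replicate 3 highest of the mutants in both Scin and cartilage genes. With the cartilage level as a covariate the change of Scin was 0.12 ± 0.35. That covariate nearly repeats the groups, and the part of cartilage content in the difference was not tested beyond this fit.

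The other gelsolin genes did not follow Scin. Svil, for supervillin, had a log2 change of 0.25 and Gsn, for gelsolin itself, one of 0.059. Of 6 tested family genes limma called none, and Vil1 was too low to test.

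Cd200, a surface glycoprotein gene that marks hypertrophic chondrocytes as well as neurons, endothelium and some lymphocytes, was slightly higher on average in mutant but overlapped between groups. Cd200 (chromosome 16, 45382135 to 45409053, minus strand) stood at 30.4, 26.6 and 31.1 FPKM across control replicates 1 to 3 and at 35.7, 30.5 and 35.5 FPKM across mutant replicates 1 to 3. Mutant replicate 2 fell inside the control range. Limma gave a log2 change of 0.20 ± 0.084 (SE, 95% interval 0.0026 to 0.40; adjusted p = 0.434). The summed level of 10 neuronal markers was 258.5 to 338.4 FPKM in control and 213.1 to 296.5 FPKM in mutant, lowest in mutant replicate 2. The summed level of 8 endothelial markers was 168.4 to 189.5 FPKM and 183.4 to 209.8 FPKM, highest in mutant replicate 2. The summed level of 8 leukocyte markers was 195.6 to 214.9 FPKM in control and 235.3 to 258.8 FPKM in mutant, with no overlap. All 8 had positive changes (median 0.21) and limma called none. Taken singly, only 3 of the 8 (S100a8, S100a9 and Cd52) were entirely higher in mutant, against 7.85% of all tested genes. Ptprc, Cd68, Csf1r, Aif1 and Lyz2 overlapped between groups. The part of these cell types in the level of Cd200 was not tested. None of the 4 CD200 receptor genes reached a mean of 1 FPKM; Cd200r1, the main receptor on myeloid cells, was highest of them in each group at 0.700 ± 0.0460 FPKM in control and 0.882 ± 0.118 FPKM in mutant.

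**Figure D4:**
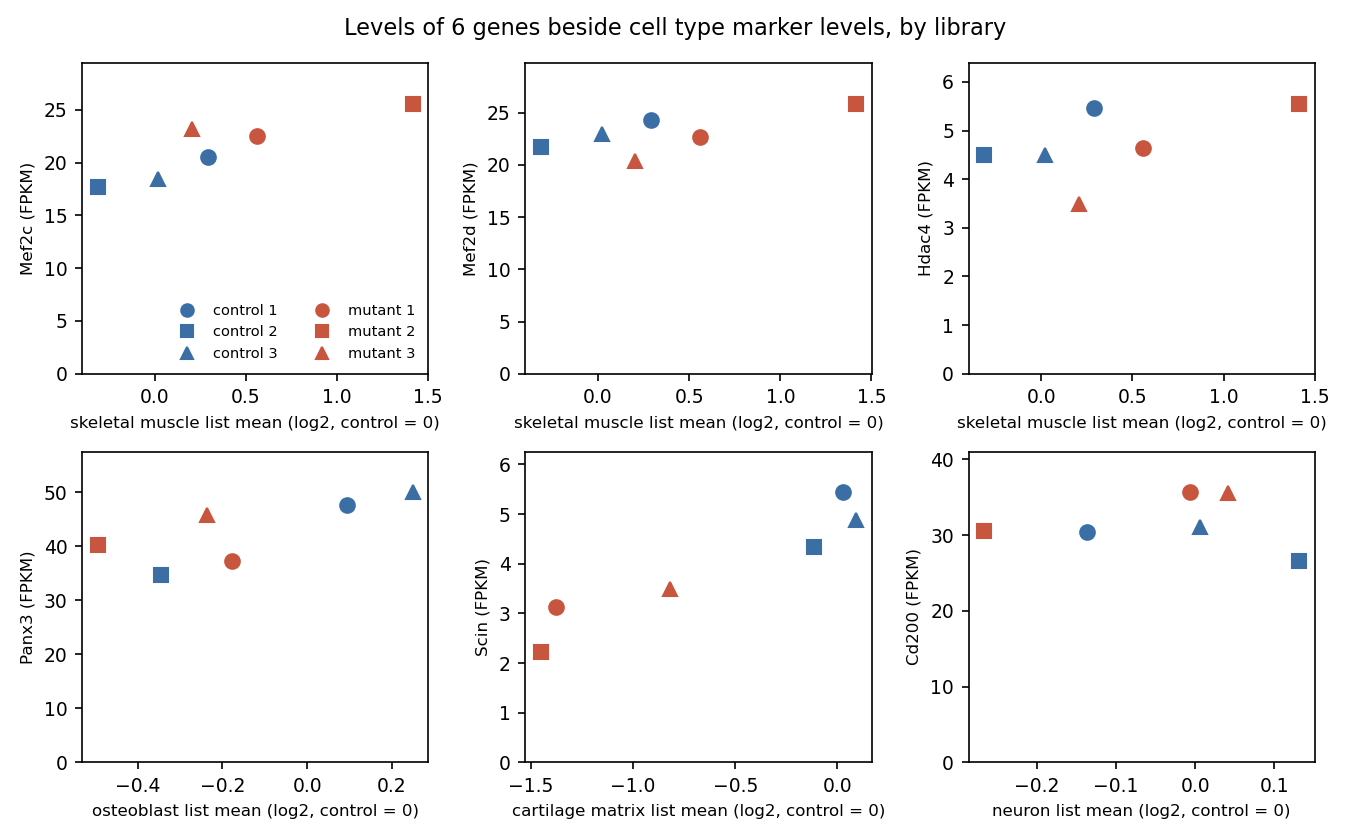
Level of 6 genes (FPKM, vertical axis from 0) beside the mean log2 level of the markers of a tissue that also expresses them (horizontal axis, control mean at 0), a point per library. Mutant replicate 2, at 1.41 on the muscle axis, is highest for Mef2c, Mef2d and Hdac4, and the mutants lie apart from the controls on the cartilage axis beside Scin.

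Across the 7 genes, limma called 1 of 7 in either direction, against 0.264% of tested genes. The 7 genes were chosen with earlier results of these data known, so these shares describe the set and do not test it. That 1, Col10a1, was called higher, against 0.061% of tested genes. Groups did not overlap for 3 of 7, against 17% of all tested genes. Mutant values were entirely higher for 2 of 7 (Col10a1 and Mef2c), against 7.85%, and entirely lower for 1 of 7 (Scin), against 9.16%. Changes were positive for 3 and negative for 4, with a median of -0.0053 against -0.002 over all tested genes. The order of levels in control was Panx3, Cd200, Mef2d, Mef2c, Scin, Hdac4 and Col10a1. In that order only the values of Scin and Hdac4 overlapped between neighbours. In mutant the order was Col10a1, Panx3, Cd200, Mef2c, Mef2d, Hdac4 and Scin. There the values of Mef2c and Mef2d overlapped, and the lowest Hdac4 value (3.50 FPKM) was all but equal to the highest Scin value (3.49 FPKM). Col10a1 thus went from the last place to the first, while the others kept their places but for 2 exchanges between neighbours, Mef2c with Mef2d and Scin with Hdac4.

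Most hypertrophic genes listed as shared with osteoblasts did not rise with Col10a1, although Ihh, 1 of the 2 with positive changes, was higher in every mutant library. Of 11 such genes limma called none, 9 had negative changes and the median was -0.23. Ihh, the hedgehog ligand made by prehypertrophic chondrocytes, stood at 3.36, 2.04 and 3.42 FPKM across control replicates 1 to 3 and at 4.12, 5.19 and 6.37 FPKM across mutant replicates 1 to 3. Its mutant values were all above the controls, as for 7.85% of all tested genes (log2 change 0.66 ± 0.19, limma adjusted p = 0.278). Like Col10a1, Ihh was highest in mutant replicate 3. Mmp13, a collagenase of late hypertrophic chondrocytes and osteoblasts, stood at 64.0, 48.4 and 116 FPKM across the controls and at 39.4, 34.0 and 39.6 FPKM across the mutants. All its mutant values lay below the controls, as for 9.16% of all tested genes (log2 change -0.90 ± 0.28, limma adjusted p = 0.318). Enpp1, which makes pyrophosphate, measured 19.3 ± 2.93 and 13.2 ± 0.642 FPKM (limma adjusted p = 0.168). Control replicate 2 was the lowest control in 10 of these 11 genes, as it was in osteoblast markers.

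Runx2, a transcription factor gene needed for hypertrophy and for osteoblasts, averaged 33.5 ± 3.72 FPKM in controls and 30.3 ± 2.45 FPKM in mutants (SD, n = 3 each), with a limma adjusted p of 0.642. Of 11 tested regulators of hypertrophy, limma called none. The smallest p belonged to Fgfr3, which restrains cartilage growth, and Sox9, which holds back the late steps of maturation. They differed by -0.42 ± 0.086 and -0.49 ± 0.11 on the log2 scale (limma adjusted p = 0.162 and 0.181). Both were lower in every mutant library than in any control, as were 9.16% of all tested genes.

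The genes with profiles nearest to Col10a1 included a keratin-associated protein gene and a stefin gene. Likeness was the root mean square difference, over the 6 libraries, between log2 values centred on each gene's mean, and the centred values of Col10a1 had a root mean square of 2.43. The nearest were Idi2 (1.28), Krtap13 (1.40), 2310034C09Rik (1.43), Stfa1 (1.495) and BC100530 (1.54). Each was far from Col10a1 by this measure. Idi2, an isopentenyl diphosphate isomerase gene, stood at 40.2, 18.4 and 3.14 FPKM in mutant replicates 1 to 3, in the opposite order to Col10a1. Nearest to Mef2c were Abracl (0.026), Sik1 (0.031) and Klk9 (0.032), and nearest to Scin were Gstm7, Gm266 and Ndc80 (0.10 each).

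**Figure D5:**
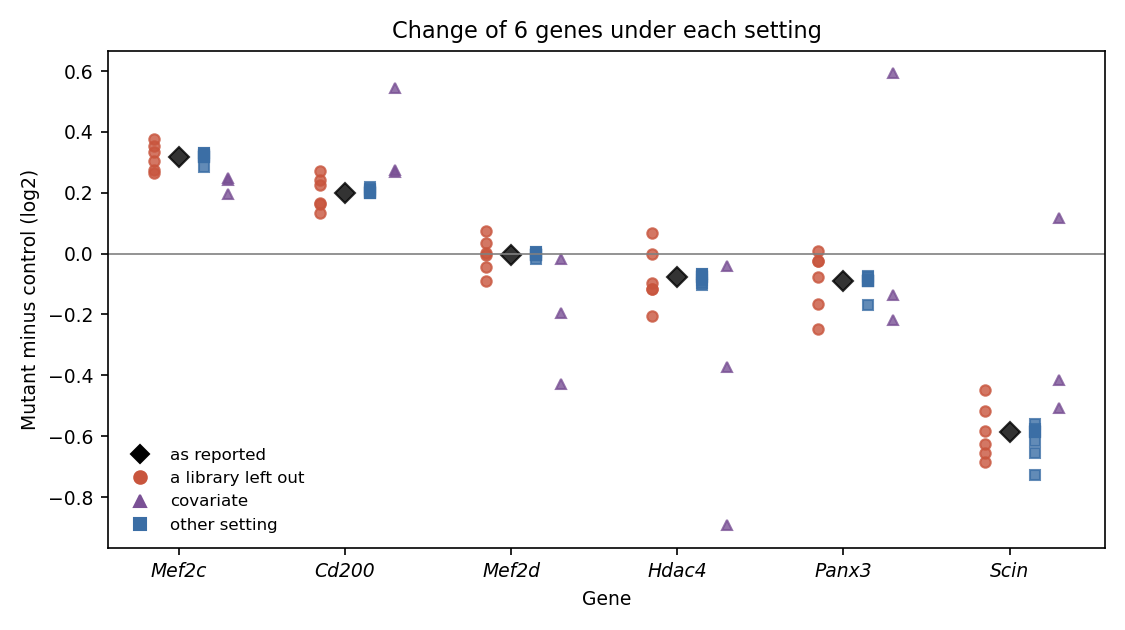
Change between groups (log2, mutant minus control) of the 6 members other than Col10a1 under each setting, with the reported value as a black diamond, fits that leave out a library as circles, covariate fits as triangles and other settings as squares. Mef2c and Cd200 stay above 0 throughout, from 0.19 to 0.38 and from 0.13 to 0.54, and Scin stays below 0 in all but the fit with the cartilage level, at 0.12.

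Within female libraries Col10a1 stood at 54.5 FPKM in mutant replicate 1, the single female mutant and the lowest mutant value, and at 1.21 to 1.28 FPKM in the 3 controls. With sex as a covariate its change was 4.62 ± 0.13 (limma adjusted p = 0.000158), and it was 4.94 ± 0.16 with the muscle level and 5.58 ± 0.23 with the cartilage level. The same fit with sex gave 0.25 ± 0.11 for Mef2c and -0.51 ± 0.21 for Scin, with limma adjusted p of 0.976 and 0.970. Markers of epidermis and oral epithelium were also higher in mutant, with 10 of 10 positive changes, none called. Taken singly, 9 of the 10 were entirely higher in mutant, against 7.85% of all tested genes. Their summed level was 682.9 to 1657 FPKM in control and 1865 to 1992 FPKM in mutant, with no overlap. The part of these tissues in the changes of the 7 genes and of Pthlh was not tested.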

How the data were processed

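FPKM values, one per gene symbol and library, were deposited by the authors, per the file headers. TopHat2 2.1.1, Bowtie2 2.2.8, SAMtools 0.1.18, Cuffdiff 2.2.1 and build mm10 are named, per the submitters' processing notes. The kit was stranded, per the labels' protocols. Annotation, strand setting and scaling between libraries: not given in the sources used here.

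Libraries were grouped by genotype label (3 control, 3 mutant) and numbered in accession order. Values were analysed as log2(FPKM + 1) for the 14766 genes whose mean reached 1 FPKM, by limma 3.58.1 in R 4.3.3 (lmFit, eBayes with trend, two-sided, no covariate, 4 residual degrees of freedom), Benjamini-Hochberg adjusted over every tested gene, at a threshold of 0.05. The fit was tested on simulated data. Relative depth came from ratios of values under 0.15 FPKM, and absolute depth from 273 genes with a single annotated transcript in GENCODE for GRCm38 (quartiles 10800000 and 12900000 fragments in control replicate 1). It is an estimate and covers counting error only.

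The members and lists were chosen with earlier results of these data known. Named genes are the members, their families, called list members or else the 2 of smallest p, a few fixed genes, and the nearest profiles. Alternatives changed the pseudocount, filter, scaling, eBayes, weights, covariates or libraries. Plots used matplotlib 3.10.9.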

Additional observations from a re-analysis of the deposited data

How the results depend on the processing

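Col10a1 kept its direction and its call in all 19 alternatives, with changes from 4.62 to 5.58 and limma adjusted p from 2e-06 to 0.00283, and it was the single member called in each. The log2 ratio of Col10a1 to Col2a1 differed by 6.65 to 7.55 over its 11 alternatives. None of the other 6 members was called in any alternative, with limma adjusted p from 0.169 to 0.976 for Mef2c, 0.130 to 0.970 for Scin and 0.288 to 0.982 for Cd200. Of the 131 values for the 7 members, 9 turned in sign. Mef2d gave 0.0062 with upper quartile scaling, 0.0047 with quantile normalization, and 0.034, 0.0005 and 0.074 without control replicate 1, mutant replicate 1 and mutant replicate 3, in a range from -0.0909 to 0.0743 without each library in turn. Hdac4 gave 0.067 without mutant replicate 3 (range -0.204 to 0.067 without each library), and Panx3 0.0078 without control replicate 3 (range -0.249 to 0.0078 likewise). With the cartilage level as a covariate Panx3 gave 0.59 and Scin 0.12, while Hdac4 moved from -0.078 to -0.89, Mef2d from -0.0053 to -0.43 and Cd200 from 0.20 to 0.54. That covariate nearly repeats the groups, and the SE of each member rose with it, as for Panx3 (0.14 to 0.36) and Cd200 (0.084 to 0.23). The cause of these shifts was not tested. The 39 genes called by limma over all genes became 18 with no filter, 19 without trend, 71 with library weights, 10 with sex, 5 with the muscle level and 1 with the cartilage level as a covariate, and 15 to 44 without each library in turn. Fragments were estimated for Col10a1, Scin and Hdac4 only. Among these, the control level of Col10a1 and the mutant level of Scin rested on the fewest. No paired analysis was possible because the labels carry no replicate numbers.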
